A study of Mus musculus with 25 samples.

Results

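TN3 thymocytes were set against TN2 thymocytes, the normal step between 2 successive stages of early T cell development in the mouse. The comparison took the samples whose source label reads TN2 (2 arrays) or TN3 (2 arrays), which made up 4 of the 25 arrays of the series, and set the TN3 array of a chip against the TN2 array of the same chip. Both groups were wild-type control cells of the B6/Ly5.1 background, labelled as negative for CD4, CD8 and CD3 and positive for CD25. The labels state that cells were used either directly as suspensions or after sorting, without saying which for each array. TN2 cells were also positive for CD44, and TN3 cells were negative for it. Total RNA was read on Illumina bead arrays. Array 1 of each stage lay on chip 5 and array 2 on chip 3. The labels gave no age, sex or number of pooled mice and did not say if the 2 arrays of a stage were different animals. The spread between the 2 arrays of a stage may therefore be technical. The p-values rest on a spread shared by all 25 arrays, most of which belong to the other groups.

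The other 21 arrays held CD25-positive cells that were negative for CD4, CD8 and CD3 and whose labels give no CD44 gate. Young cells (6 arrays) came from the C57BL/6 hosts themselves and carried CD45.2. Old cells with competition (6 arrays) were CD45.1 cells of B6/Ly5.1 donor origin in wild-type hosts. Old cells without competition (9 arrays) were F1(WB x B6/Ly5.1) cells in Rag2-/-γc-/-KitW/Wv hosts. They entered the statistical model because 2 arrays a group give almost no spread of their own, and they are described where their levels bear on the genes of the step.

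Progenitors that enter the thymus pass through triple-negative stages before they carry CD4 or CD8. TN2 cells still express the stem cell factor receptor KIT and the adhesion receptor CD44, keep some potential for myeloid, mast cell and other fates, and respond to Notch ligands and IL-7. At the transition to TN3 the T cell fate is fixed, the recombinase cuts the T cell receptor beta locus, and the pre-T cell receptor is assembled from the new beta chain, the invariant alpha chain encoded by Ptcra, and the CD3 chains.

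The 4 arrays detected 43.1% to 44.6% of their 46237 probes. Levels are given as normalized log2 intensities, on which a difference of 1 is a doubling. After background correction an offset of 16 was added, which holds dim probes at a floor just above 4. The floor understates the fold changes of dim genes. Over all 15533 genes tested, the median absolute difference was 0.27 between the 2 TN2 arrays and 0.27 between the 2 TN3 arrays. Between the means of the stages it was 0.21, and a difference of means varies less than a difference of single arrays. The labelled phenotypes were checked next. Cd44, the receptor that separates the stages, stood at 6.60 and 6.08 in TN2 and at 4.46 and 4.46 in TN3. The groups did not overlap, and Cd44 fell by 1.88 ± 0.27 (log2, with its SE) between 2 arrays and 2 (limma, adjusted p = 0.000512). These values are of the probe that stood for Cd44. Another of its probes differed by -2.10 and dimmer ones by -0.49 and -0.39. The rest of its probes, near the floor, differed by -0.11 to 0.08. Kit stood at 7.73 and 7.49 in TN2 and at 5.78 and 5.60 in TN3, again without overlap, and fell by 1.92 ± 0.47 (adjusted p = 0.0472). That call ended on dropping any of the 4 (adjusted p from 0.0781 to 0.185), though the difference stayed between -2.04 and -1.80. Il2ra, which encodes CD25, had a single dim probe at 4.62 and 4.42 in TN2 and at 4.40 and 4.13 in TN3, where it was not detected. Its value tells little of CD25, and the difference did not pass (adjusted p = 0.84). No probe of Cd8a was detected on any of the 4 arrays. Cd8b1, the beta chain of CD8, was bright on the probe that stood for it (8.60, 8.38, 7.79 and 8.32), but 1 of its 3 probes had the opposite sign.

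In all, 206 of 15533 genes differed at an adjusted p below 0.05 (1.33%), 69 of them higher in TN3 (0.444%) and 137 lower (0.882%). Of the 206, 160 differed at least 2-fold, and 17 rose and 32 fell at least 4-fold. The arrays of the stages did not overlap for 203 of the 206, against 37.3% of all genes tested, and the same arrays chose these genes. The genes that fell went from a median level of 6.24 in TN2 to 4.48 in TN3, near the floor, and 41 of them were detected on no TN3 array. The genes that rose went from 4.48 to 6.55, and 24 of them were detected on no TN2 array. The split of 66.5% lower depended on how arrays were scaled: with a common median 15 genes were higher and 68 lower, 81.9% lower. Single arrays moved it as well, in a fit with chip as a random block. Dropping TN2 array 1 gave 24 higher and 103 lower, and dropping TN2 array 2 gave 46 and 147. Dropping TN3 array 1 gave 74 and 58, and dropping TN3 array 2 gave 66 and 79. The 4 arrays fitted alone in limma gave 0 genes (1445 had an unadjusted p below 0.05). The calls thus need the spread estimated from the remaining groups.

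**Figure D1:**
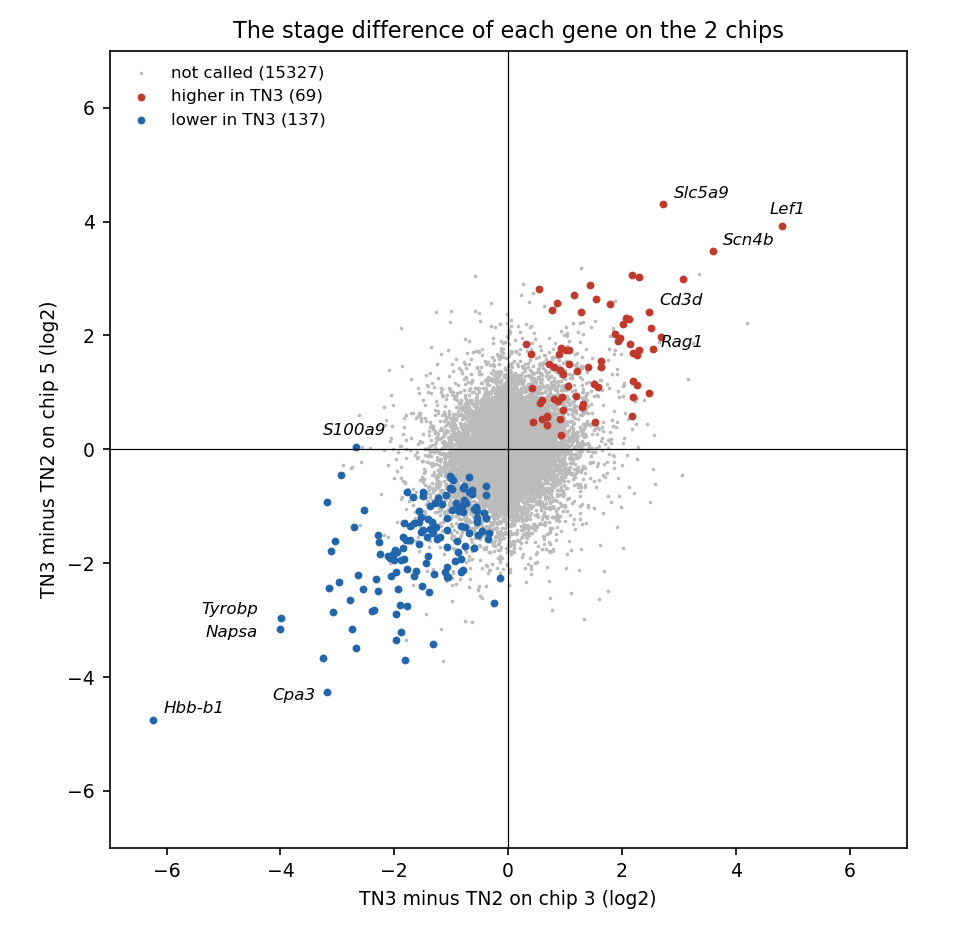
TN3 minus TN2 (log2) of every gene tested on chip 3 (horizontal axis) and on chip 5 (vertical axis), with 69 called genes higher in TN3 in red, 137 lower in blue and the rest in grey. All called genes but S100a9 lie in the lower left or upper right part, which means the same sign on both chips, and Lef1 and Hbb-b1 lie farthest out.

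Each chip gave its own estimate of the step, and 205 of the 206 called genes had the same sign on both. The exception, S100a9, is described below. The genes were called on the mean of the differences on these chips, which favours a shared sign, so this count is no separate replication. Over all genes the differences on chip 3 and chip 5 correlated at 0.276. The fits with a single pair below also took their spread from the other groups. With the chip 3 pair alone 87 genes were called, and 46 of the 206 were among them. With the chip 5 pair alone 169 were called, including 78 of the 206. Both pairs called 26 of the 206, 5 of them higher (Lef1, Cd3d, Hdgfrp3, Camsap2 and Rab11fip4) and 21 lower. The lower ones included Lyl1, Hhex, Tyrobp, Napsa, Serpinf1, Igfbp4, Emilin2 and Adgrg3. For 108 of the 206, neither pair alone made the call.

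Transcription factors of T cell commitment did not move as a block, but Lef1 and Ets2 rose among them. Of 21 factors tested, 2 rose, 1 fell and 18 did not pass. Their median difference was 0.08, against 0.00 over all genes, and 16 of 21 were above 0. Lef1, an HMG-box factor that binds DNA with TCF-1 at T cell genes, stood at 5.11 and 4.51 in TN2 and at 9.03 and 9.33 in TN3. It rose by 4.37 ± 0.47, a 20.7-fold difference (adjusted p = 3.09e-05), and all 4 of its probes were higher in TN3. Ets2, a factor of the ETS family, stood at 4.14 and 5.55 in TN2 and at 7.20 and 7.72 in TN3 and rose by 2.62 ± 0.54 (adjusted p = 0.0162). The 2 TN2 arrays of Ets2 lay far apart, and its call ended without TN2 array 1, TN3 array 1 or TN3 array 2 (adjusted p = 0.297, 0.0578 and 0.155). Runx3, a Runt-domain factor of CD8 and innate lineages, was dim (5.53 and 5.23, then 4.16 and 4.48) and fell by 1.06 ± 0.24 (adjusted p = 0.029). That call ended without TN2 array 1 or TN3 array 1 (adjusted p = 0.179 and 0.154).

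Ikzf3, the gene of Aiolos, a relative of Ikaros, was not detected in TN2 (4.12 and 4.15) and stood at 6.00 and 6.80 in TN3. The groups were well apart, at least 4.44-fold, yet the test across all arrays did not pass (adjusted p = 0.0824). Spib, an ETS factor, stood at 4.69 and 4.58 in TN2 and at 5.59 and 5.87 in TN3 and did not pass either (adjusted p = 0.0767). Gata3 and Bcl11b, a pair of regulators that T cell commitment requires, are given here although the naming rule did not pick them. Bcl11b stood at 9.13 and 9.37 in TN2 and at 8.94 and 9.67 in TN3, a difference of 0.06 ± 0.24. Gata3 was dim, and its difference was 0.07 ± 0.31. For both, the arrays of the stages overlapped.

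**Figure D2:**
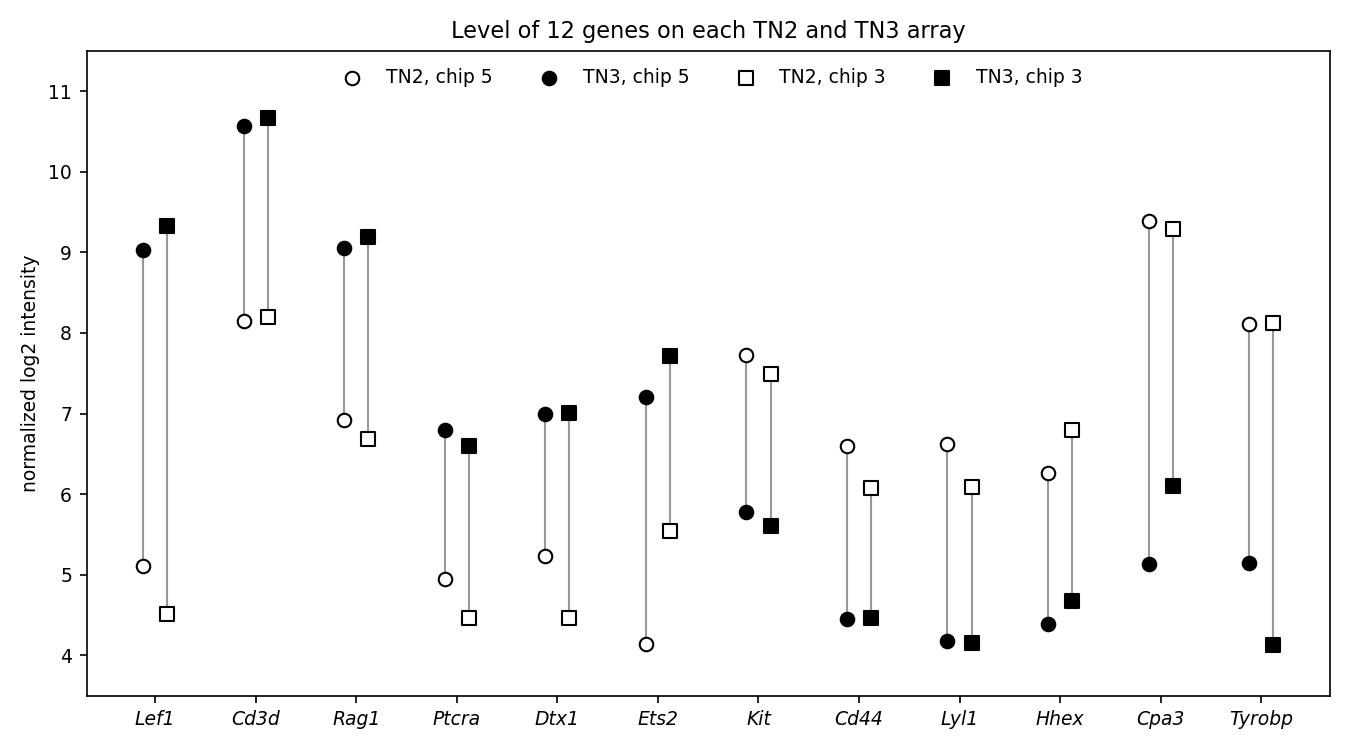
Normalized log2 intensity of 12 genes on the 4 arrays, with open symbols for TN2, filled symbols for TN3, circles for chip 5, squares for chip 3 and a line joining the arrays of a chip. The 6 genes on the left were higher on both TN3 arrays, and the 6 on the right were lower on both.

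Cd3d, Rag1 and Ptcra rose among the genes of the pre-T cell receptor and the recombinase. Cd3d, the delta chain of CD3, stood at 8.14 and 8.20 in TN2 and at 10.56 and 10.67 in TN3. The arrays of each stage lay close together, and Cd3d rose by 2.44 ± 0.23, a 5.44-fold difference (adjusted p = 6.51e-06). Rag1, the catalytic chain of the recombinase that cuts receptor genes, stood at 6.92 and 6.68 in TN2 and at 9.05 and 9.18 in TN3 and rose by 2.32 ± 0.38 (adjusted p = 0.00212). Ptcra stood at 4.95 and 4.47 in TN2 and at 6.79 and 6.60 in TN3, without overlap, and rose by 1.99 ± 0.44 (adjusted p = 0.0265). Its call ended without TN2 array 2, TN3 array 1 or TN3 array 2 (adjusted p = 0.122, 0.106 and 0.0679), and under a common median scaling (adjusted p = 0.172).

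The genes of Cd3d and Cd3g lie next to each other on chromosome 9 and point away from each other, with start sites 1355 bases apart in RefSeq's GRCm38.p6. Cd3g, the gamma chain, stood at 9.25 and 9.52 in TN2 and at 10.01 and 10.14 in TN3, a difference of 0.69 ± 0.24 that did not pass (adjusted p = 0.209). Whether the pair differed in its step was not tested. The promoters of the genes below are printed to show what lies at the start of the rising receptor genes, the neighbour that did not pass, and Cpa3, a gene that fell. Each runs from 250 bases before to 50 after the start site, from RefSeq's GRCm38.p6, 5′ to 3′ on the gene's strand. Capitals mark matches on either strand to the letters searched. TCF and LEF factors were searched as CTTTGA and also as CTTTGT. E proteins were searched as CAGGTG and also as CAGCTG. Runx factors were searched as TGTGGT. Factors of the GATA family were searched as AGATAA and also as TGATAA. Ets factors and PU.1 were searched as AGGAAG, and RBPJ, the DNA-binding partner of Notch, was searched as TGGGAA.
Cd3d: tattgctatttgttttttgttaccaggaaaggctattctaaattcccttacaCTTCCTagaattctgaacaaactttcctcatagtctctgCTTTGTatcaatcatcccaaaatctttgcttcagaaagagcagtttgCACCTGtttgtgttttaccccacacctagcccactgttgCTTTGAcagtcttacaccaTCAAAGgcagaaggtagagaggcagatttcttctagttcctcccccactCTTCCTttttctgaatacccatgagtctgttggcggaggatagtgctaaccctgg
Cd3g: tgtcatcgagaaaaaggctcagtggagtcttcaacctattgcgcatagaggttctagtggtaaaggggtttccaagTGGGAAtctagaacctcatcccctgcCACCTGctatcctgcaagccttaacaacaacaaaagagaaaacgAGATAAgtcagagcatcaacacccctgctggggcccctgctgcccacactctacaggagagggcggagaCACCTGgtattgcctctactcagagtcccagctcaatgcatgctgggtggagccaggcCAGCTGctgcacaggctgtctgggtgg
Ptcra: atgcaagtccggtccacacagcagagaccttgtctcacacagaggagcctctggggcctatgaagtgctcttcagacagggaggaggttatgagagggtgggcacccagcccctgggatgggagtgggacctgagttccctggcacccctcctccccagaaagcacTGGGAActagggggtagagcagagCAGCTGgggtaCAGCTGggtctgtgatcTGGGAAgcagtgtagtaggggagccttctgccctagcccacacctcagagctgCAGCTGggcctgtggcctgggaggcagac
Rag1: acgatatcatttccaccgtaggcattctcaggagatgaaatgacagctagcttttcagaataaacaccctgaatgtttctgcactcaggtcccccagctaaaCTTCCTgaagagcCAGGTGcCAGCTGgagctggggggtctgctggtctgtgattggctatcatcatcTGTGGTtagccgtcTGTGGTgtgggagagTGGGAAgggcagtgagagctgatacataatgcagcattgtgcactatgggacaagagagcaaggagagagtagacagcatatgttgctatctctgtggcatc
Cpa3: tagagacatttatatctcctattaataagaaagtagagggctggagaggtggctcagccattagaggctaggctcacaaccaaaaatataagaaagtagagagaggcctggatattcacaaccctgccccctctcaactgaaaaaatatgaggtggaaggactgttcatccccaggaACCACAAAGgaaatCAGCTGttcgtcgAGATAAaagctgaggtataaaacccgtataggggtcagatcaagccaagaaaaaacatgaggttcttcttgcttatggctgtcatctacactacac
These windows lie at chr9:44981536-44981835 (plus strand), chr9:44980382-44980681 (minus), chr17:46763663-46763962 (minus), chr2:101649483-101649782 (minus) and chr3:20242132-20242431 (minus). The Cd3d window held 3 matches to the TCF and LEF letters, 1 to the E protein letters and 2 to the Ets letters. The Cd3g window held 0 TCF and LEF, 3 E protein, 1 GATA and 1 RBPJ matches. The Ptcra window held 3 E protein and 2 RBPJ matches, and the Rag1 window 2 E protein, 2 Runx, 1 Ets and 1 RBPJ matches. In the Cpa3 window a Runx match and a TCF and LEF match overlap, beside 1 E protein and 1 GATA match.

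The same letters were counted in the first listed promoter of every gene that had one, 43 of the 69 genes that rose, 106 of the 137 that fell and 11115 of all genes tested. TCF and LEF letters stood in 27.9% of the promoters of genes that rose, 23.6% of those that fell and 25.6% of all. E protein letters stood in 34.9%, 33.02% and 30.4%, and Runx letters in 11.6%, 17.9% and 13.0%. GATA letters stood in 16.3%, 10.4% and 12.2%, Ets letters in 32.6%, 37.7% and 32.9%, and RBPJ letters in 30.2%, 27.4% and 23.5%. These shares describe 300 bases a gene, were not tested, and say nothing of binding.

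Of 22 genes of CD3 and pre-T cell receptor signalling, 2 rose (Cd3d and Ptcra), 0 fell and 20 did not pass, with a median of 0.20 and 16 of 22 above 0. Cd3e, the epsilon chain, stood at 9.30 and 9.55 in TN2 and at 10.14 and 10.15 in TN3 and just missed the threshold (0.72 ± 0.19, adjusted p = 0.0657). Zap70, the kinase that the phosphorylated CD3 chains recruit, was 0.88 ± 0.36 higher and did not pass (adjusted p = 0.321). Of 11 recombination genes 1 rose, Rag1, and 10 did not pass. Rag2, the partner of Rag1, was not detected in TN2 (4.12 and 4.24) and stood at 4.77 and 5.57 in TN3 (0.99 ± 0.56, adjusted p = 0.532). Dntt, the terminal transferase that adds bases at the joints, differed by 0.14 ± 0.27; it is outside the naming rule.

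Of 16 transcripts of the receptor loci 0 passed in limma, with a median of 0.13, 11 above 0 and 5 below. A gamma locus transcript listed as Tcrg stood at 6.49 and 6.09 in TN2 and at 9.58 and 9.44 in TN3. The groups did not overlap and the stages differed by 3.22 ± 0.90, which did not pass (adjusted p = 0.0941). The gamma variable segments Tcrg-V5 and Tcrg-V7 were higher by 1.81 ± 0.45 and 1.55 ± 0.39 (adjusted p = 0.0515 and 0.0508). Such segments have close relatives that a probe may not tell apart. The beta variable gene Trbv1 stood at 4.82 and 4.24 in TN2 and at 5.45 and 4.99 in TN3 and did not pass (adjusted p = 0.489).

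Among Notch receptors, modifiers and targets 1 of 19 rose, 0 fell and 18 did not pass, with a median of 0.12. Dtx1, which encodes the Notch regulator Deltex and is a Notch target in thymocytes, stood at 5.23 and 4.46 in TN2 and at 7.00 and 7.00 in TN3. It rose by 2.16 ± 0.49 (adjusted p = 0.0315), and the call ended without TN2 array 2, TN3 array 1 or TN3 array 2 (adjusted p = 0.145, 0.0871 and 0.0917). Notch3, a receptor of this stage, and Myc, a target, were higher on both chips by 1.84 ± 0.57 and 1.57 ± 0.49 and did not pass (adjusted p = 0.141 and 0.143). Lfng, the glycosyltransferase that sensitises Notch to its ligands, was 1.18 ± 0.45 lower and did not pass (adjusted p = 0.268). The list therefore held values in either direction, with the targets Hes1 and Notch1 itself near 0 (0.27 ± 0.34 and 0.16 ± 0.30); this last pair is outside the naming rule.

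Several transcription factors of early progenitors fell. Of 16 tested, 6 fell, 0 rose and 10 did not pass, their median was -0.69, and 14 of 16 were below 0. Over all genes tested, 0.882% were called lower and 49.9% were below 0. The list was chosen with earlier results of these data known. Lyl1, a basic helix-loop-helix factor of multipotent progenitors, stood at 6.63 and 6.08 in TN2 and at 4.18 and 4.16 in TN3, where it was not detected. It was at least 4.21-fold lower (adjusted p = 4.67e-05). Hhex, a homeobox factor, stood at 6.27 and 6.80 in TN2 and at 4.39 and 4.68 in TN3 and fell by 2.00 ± 0.29 (adjusted p = 0.000741). Bcl11a, a zinc finger factor of progenitors and B cells, stood at 6.79 and 6.95 in TN2 and at 4.27 and 5.56 in TN3 and fell by 1.95 ± 0.27 (adjusted p = 0.000477). Nfe2, the factor of megakaryocytes and red cells, fell by 2.43 ± 0.51 (adjusted p = 0.0167). Spi1, which encodes the myeloid factor PU.1, was dim in TN2 (4.92 and 4.72) and not detected in TN3, at least 1.46-fold lower (adjusted p = 0.0305), and Tal1 was at least 1.63-fold lower (adjusted p = 0.0316). Lyl1 and Hhex passed whichever of the 4 arrays was left out. Bcl11a did not without TN3 array 1 (adjusted p = 0.0554). Nfe2 passed only without TN3 array 2, and Spi1 and Tal1 only without TN2 array 2 (adjusted p up to 0.192, 0.199 and 0.376 without another). In bulk samples such as these, fewer cells of a type and less RNA per cell cannot be told apart.

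**Figure D3:**
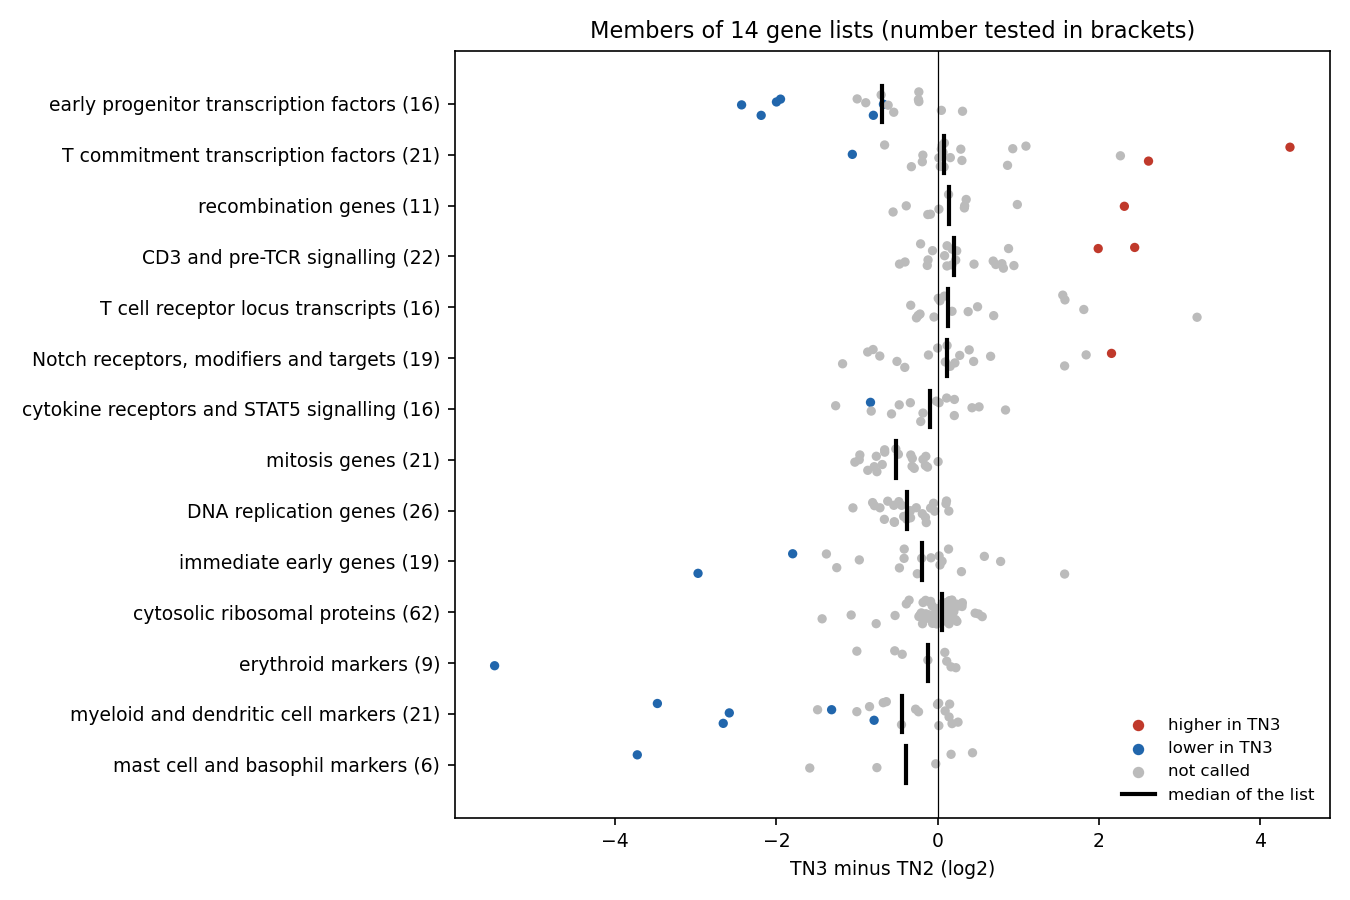
TN3 minus TN2 (log2) of each tested member of 14 gene lists, with genes called higher in red, called lower in blue, not called in grey and the median of each list as a black bar. The early progenitor factors have 6 called members, all lower, and the mitosis genes lie almost all below 0 with 0 called.

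The E protein Tcf12, which encodes HEB, was 0.69 ± 0.31 higher and the inhibitor Id2 0.86 ± 0.38 lower, and of 5 E proteins and Id inhibitors 0 passed in limma (adjusted p from 0.367). Of 11 stage surface markers Kit and Cd44 fell and 9 did not pass. Cd28, the costimulatory receptor, stood at 5.44 and 5.13 in TN2 and at 6.86 and 6.42 in TN3 (1.36 ± 0.52, adjusted p = 0.272). Thy1 and Cd27 were bright in both stages and differed by 0.28 ± 0.17 and 0.35 ± 0.31.

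Among 17 receptors for homing and adhesion 2 rose, 1 fell and 14 did not pass, where 0.444% of all genes tested rose and 0.882% fell. Their median was -0.19, with 7 above 0. Itgae, the alpha chain of the integrin CD103, stood at 4.28 and 4.16 in TN2, where this probe was not detected, and at 5.97 and 6.35 in TN3, at least 3.75-fold higher (adjusted p = 0.0183). Itgb7, the beta chain with which it pairs, stood at 5.98 and 7.49 in TN2 and was not detected in TN3, at least 5.31-fold lower (adjusted p = 0.0369). The size rested on the TN2 arrays: with chip as a random block, the difference was -3.21 without TN2 array 1 and -1.70 without TN2 array 2. The chains of this integrin therefore changed in opposite directions. Nrp1, a receptor for semaphorins and VEGF, stood at 5.07 and 5.80 in TN2 and at 6.86 and 6.74 in TN3 and rose by 1.36 ± 0.32 (adjusted p = 0.0364). With chip as a random block, each of the 3 calls was lost on leaving out any of 3 arrays. They passed only without TN3 array 1 for Itgae, TN2 array 1 for Itgb7 and TN2 array 2 for Nrp1. Across these fits the difference stayed between 1.76 and 2.13 for Itgae and between 1.00 and 1.72 for Nrp1.

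Of 16 genes of cytokine receptors and STAT5 signalling only Jak1 passed. Jak1, the kinase of the IL-7 receptor, was dim, was not detected in TN3 and was at least 1.67-fold lower (adjusted p = 0.039), and this call remained only without TN2 array 2 (adjusted p up to 0.297 otherwise). Socs2, a feedback inhibitor, was not detected in TN3 and did not pass (adjusted p = 0.141). None of 14 Bcl2 family genes passed in limma (smallest adjusted p 0.332, for Bcl2a1b), nor any of 14 co-receptor and post-beta-selection genes (0.330, for Cd69) or 7 GIMAP GTPases (0.606, for Gimap9).

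Most mitosis and DNA replication genes had values below 0, and 0 of them passed. Of 21 mitosis genes 20 were below 0, with a median of -0.52 (-0.56 on chip 3 and -0.39 on chip 5), and 13 were lower on both TN3 arrays than on either TN2 array, which held for 18.8% of all genes. Cenpa, the centromeric histone, stood at 9.60 and 9.27 in TN2 and at 8.36 and 8.58 in TN3, and its difference of -0.96 ± 0.24 just missed the threshold (adjusted p = 0.0528). Nusap1 and Kif11, proteins of the spindle, were 1.03 ± 0.27 and 0.79 ± 0.25 lower (adjusted p = 0.0699 and 0.167). Of 26 DNA replication genes 23 were below 0, with a median of -0.38, and the smallest adjusted p was 0.495 (Mcm6). Of 20 G1 cyclins, CDKs and CDK inhibitors 10 were above 0 and 10 below, with a median of 0.00, and 0 passed (smallest adjusted p 0.165, for Ccnd3). Pcna, Ccna2, Cenpe and Cdkn1c were detected on none of the 4 arrays, so their probes carry no information here. The counts of these lists above and below 0 include them. Over all genes 7757 of 15533 were below 0.

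Of 19 immediate early genes 2 fell and 17 did not pass, where 0.882% of all genes tested fell. Their median was -0.20 (-0.47 on chip 3 and -0.001 on chip 5), with 8 above 0. Ier3, an early response gene that restrains cell death, stood at 7.13 and 8.66 in TN2 and at 4.27 and 5.58 in TN3 and fell by 2.97 ± 0.55 (adjusted p = 0.00628). Fos, a subunit of AP-1, stood at 5.89 and 6.67 in TN2 and at 4.83 and 4.13 in TN3 and fell by 1.80 ± 0.38 (adjusted p = 0.0182). Fos lost its call without TN2 array 2 or TN3 array 2 (adjusted p = 0.132 and 0.148), and Ier3 without TN2 array 2 or TN3 array 1 (0.179 and 0.2).

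Housekeeping groups had medians near 0. The median was 0.01 over 73 oxidative phosphorylation genes, 0.06 over 62 cytosolic ribosomal protein genes and 0.06 over 15 glycolysis genes, and 0 of these passed in limma (smallest adjusted p 0.287, for Ndufa13, 0.263, for Rpl7a, and 0.336, for Slc2a3). Among 22 MHC class I and antigen loading genes 1 fell, H2-Q8 (6.84 and 7.34, then 5.33 and 6.82), by 1.01 ± 0.25 (adjusted p = 0.0433). H2-Q8 has near-identical relatives, and its call ended on dropping any of the 4 arrays (adjusted p from 0.0917 to 0.959). Tap1, a peptide transporter chain, was 1.21 ± 0.31 lower and did not pass (adjusted p = 0.0627). Of 20 interferon response genes 0 passed in limma (smallest adjusted p 0.138, for Ifit3).

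Some markers of other blood cells fell from TN2 to TN3. Cpa3, a mast cell protease that early thymic progenitors also express, stood at 9.39 and 9.29 in TN2 and at 5.13 and 6.10 in TN3 and fell by 3.72 ± 0.54, a 13.2-fold difference (adjusted p = 0.000553). Of the 13 mast cell and basophil markers listed 6 were tested and 1 fell, Cpa3. The median difference of the 6 was -0.39 (0.03 on chip 3 and -0.74 on chip 5), and 2 of them, Alox5 and Cma1, were above 0. The summed level of the 6, on the linear scale, was 1142 and 1121 in TN2 and 259 and 285 in TN3. Every linear sum given for a marker list includes the offset of 16 for each gene. The defining markers Ms4a2, Gata2, Mcpt8, Prss34, Tpsb2 and Tpsab1 were not detected on as many as 3 of the 25 arrays. Hbb-b1, a beta-globin gene, stood at 10.01 and 10.42 in TN2 and at 5.26 and 4.18 in TN3 and fell by 5.49 ± 1.18 (adjusted p = 0.019). Its call ended without TN2 array 1, TN2 array 2 or TN3 array 2 (adjusted p = 0.0507, 0.0619 and 0.0973), 2 of its 11 probes had the opposite sign, and globin genes share near-identical copies. Of 9 erythroid markers tested only Hbb-b1 fell, and the sum of the 9 was 1242 and 1577 in TN2 and 199 and 204 in TN3. Hba-a1, the alpha-globin gene, was detected on no TN2 array.

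Of 21 myeloid and dendritic cell markers tested, of 27 listed, 5 fell, 0 rose and 16 did not pass, with a median of -0.45. Of these 21, 14 were below 0 and 7 above. Over all genes tested, 0.882% were called lower and 49.9% were below 0. Tyrobp, an adaptor that signals for receptors of myeloid and NK cells, stood at 8.11 and 8.12 in TN2 and at 5.14 and 4.13 in TN3 and fell by 3.48 ± 0.40 (adjusted p = 4.67e-05). Cd163, a scavenger receptor, stood at 7.42 and 7.26 in TN2 and at 4.07 and 5.29 in TN3 and fell by 2.66 ± 0.36 (adjusted p = 0.000263). Mpo, the granule enzyme myeloperoxidase, was detected on both TN2 arrays (6.93 and 6.47) and on no TN3 array, at least 5.36-fold lower (adjusted p = 0.003). Itgax, which encodes CD11c, was dim and at least 1.58-fold lower (adjusted p = 0.00819), a call that remained only without TN2 array 2 (adjusted p up to 0.199 otherwise). S100a9 rested on TN2 array 2 alone (6.87, against 4.12 on TN2 array 1 and 4.16 and 4.20 in TN3). Without that array its difference was 0.06, and without TN3 array 1 or TN3 array 2 its call ended (adjusted p = 0.347 and 0.317). The sum over the 21 was 1338 and 1194 in TN2 and 613 and 559 in TN3. Elane, H2-Aa and Adgre1 were detected on none of the 4 arrays, Csf1r on no TN2 array, and Itgam, Cd14, S100a8, Cybb and Fcgr3 not on as many as 3 of the 25.

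Of 7 B cell markers tested Cd180, a Toll-like receptor homologue also found on myeloid cells, fell: it stood at 7.78 and 5.88 in TN2, was not detected in TN3 and was at least 5.86-fold lower (adjusted p = 0.00025). Without TN2 array 1 its difference was -1.81 and passed with chip as a random block (adjusted p = 0.0124), but not with chip as a fixed block (adjusted p = 0.0643). The median difference of the 7 was -0.02, and 3 of them, Cd79b, Ebf1 and Cd22, were above 0 (0.18, 0.22 and 0.15). The sum of the 7, Cd180 included, was 553 and 356 in TN2 and 250 and 280.0 in TN3. Ms4a1, Pax5, Blnk and Fcrla were not detected on as many as 3 of the 25 arrays. Of 10 NK and innate lymphoid markers 0 passed in limma (smallest adjusted p 0.367, for Nkg7), with sums of 565 and 627 in TN2 and 381 and 348 in TN3. Of 8 thymic stroma markers 0 passed (0.263, for Ccl25), with sums of 334 to 408 over the 4 arrays, and of 4 double-positive thymocyte markers 0 passed (0.301, for Arpp21). The erythroid, mast cell, myeloid, B cell and NK and innate lymphoid sums were thus lower on both TN3 arrays than on either TN2 array, as the called progenitor factors were, and their part in those results was not tested. In TN2 Hbb-b1 and Cpa3 made up most of their sums. The median difference of all 9 erythroid markers was -0.12, with 4 above 0, and their sum without Hbb-b1 was 213 and 208 in TN2 and 161 and 186 in TN3. Without Cpa3 the mast cell sum was 469.5 and 496 in TN2 and 224 and 216 in TN3.

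The remaining large rises came from genes of varied function. Scn4b, a beta subunit of sodium channels, stood at 4.11 and 4.85 in TN2 and at 7.59 and 8.44 in TN3 and rose by 3.54 ± 0.64 (adjusted p = 0.00528), though not without TN2 array 1 (adjusted p = 0.0507) or TN3 array 2 (0.0518). Slc5a9, a sodium-dependent sugar transporter, stood at 4.07 and 4.58 in TN2 and at 8.38 and 7.30 in TN3 and rose by 3.52 ± 0.54 (adjusted p = 0.00121). Hdgfrp3 was detected on no TN2 array and was at least 7.58-fold higher (adjusted p = 0.00117). Its call ended without TN2 array 1, TN3 array 1 or TN3 array 2 once chip was a random block (adjusted p up to 0.0631). Camsap2, which caps microtubule minus ends, and Rab11fip4, an effector of RAB11, rose by 2.33 ± 0.31 and 2.11 ± 0.24 (adjusted p = 0.00025 and 4.61e-05), and both passed whichever array was left out. Ly108, a SLAM family receptor, Tenm1, Nudcd3 and Mfsd11 rose by 1.95 to 2.21. Cd200, a membrane glycoprotein that signals to myeloid cells, was not detected in TN2 by the probe that stood for it and was at least 4.35-fold higher (adjusted p = 0.0363). Nudcd3 and Tenm1 lost their calls without any of the 4 arrays (adjusted p up to 0.194 and 0.301). Cd200 kept its call only without TN3 array 2, Ly108 only without TN2 array 2, and Mfsd11 only without TN2 array 2 or TN3 array 1 (adjusted p up to 0.295, 0.112 and 0.307 otherwise). Ell3, Matn4 and Mapk8ip1, the last a scaffold of JNK signalling, were detected on no TN2 array and were at least 4.04-fold, 3.79-fold and 3.76-fold higher. Ell3 kept its call only without TN3 array 2 and Matn4 only without TN3 array 1 (adjusted p up to 0.242 and 0.147 otherwise), all with chip as a random block. Mapk8ip1 passed without each array in that fit, but not on the pair of either chip alone (adjusted p = 0.148 and 0.111).

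The remaining large falls were of varied function too. Napsa, an aspartic protease, stood at 7.37 and 8.22 in TN2 and at 4.21 and 4.22 in TN3, where the probe was not detected, and was at least 11.4-fold lower (adjusted p = 0.000443). Serpinf1 and Serpine2, serpins that cells secrete, fell, with differences of -3.08 ± 0.32 and -2.79 ± 0.50 (adjusted p = 2.27e-05 and 0.00477). Igfbp4, a carrier of insulin-like growth factors, fell by 2.95 ± 0.34 (adjusted p = 4.67e-05). Emilin2, a matrix glycoprotein, stood at 6.79 and 6.91 in TN2 and was not detected in TN3, at least 5.94-fold lower (adjusted p = 6.51e-06). Adgrg3, an adhesion G protein-coupled receptor, Litaf, F2r, the thrombin receptor, and Fut8, the core fucosyltransferase, fell by 2.50 to 2.65. Dusp6, the phosphatase of ERK kinases, stood at 9.55 and 9.57 in TN2 and at 7.34 and 6.93 in TN3 and fell by 2.43 ± 0.47 (adjusted p = 0.00897), and Mdga1 was at least 4.97-fold lower. Dusp6 and Fut8 lost their calls without any of the 4 arrays, with chip as a random block (adjusted p up to 0.12 and 0.105), and F2r kept its call only without TN3 array 2 (adjusted p up to 0.242 otherwise).

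The young and old cells, with no CD44 gate in their labels, were then placed on the step. For each called gene the mean of a group was read as a percentage of the way from the TN2 mean to the TN3 mean. The genes were chosen on the TN2 and TN3 arrays, which widens the distance between those ends. For the 137 genes that fell, the median position was 53.2% in young cells, 96.1% in old cells with competition and 92.7% in old cells without competition. For the 69 genes that rose it was 27.7%, 35.2% and 38.96%. The old groups therefore lay near the TN3 end for genes that fell and nearer the TN2 end for genes that rose. Each of these is the dim end, with a median level of 4.48, near the floor. The part of the floor in these placements was not tested. Single genes spread widely. In old cells with competition the quartiles of the rising genes were 11.0% and 70.1%, and 49 of the 137 falling genes lay past the TN3 mean. These positions were not tested. Young cells and old cells with competition lay on chips 2 and 4, apart from all TN2 and TN3 arrays, so chip and group cannot be told apart in their placement. The same holds for old cells without competition against young cells.

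**Figure D4:**
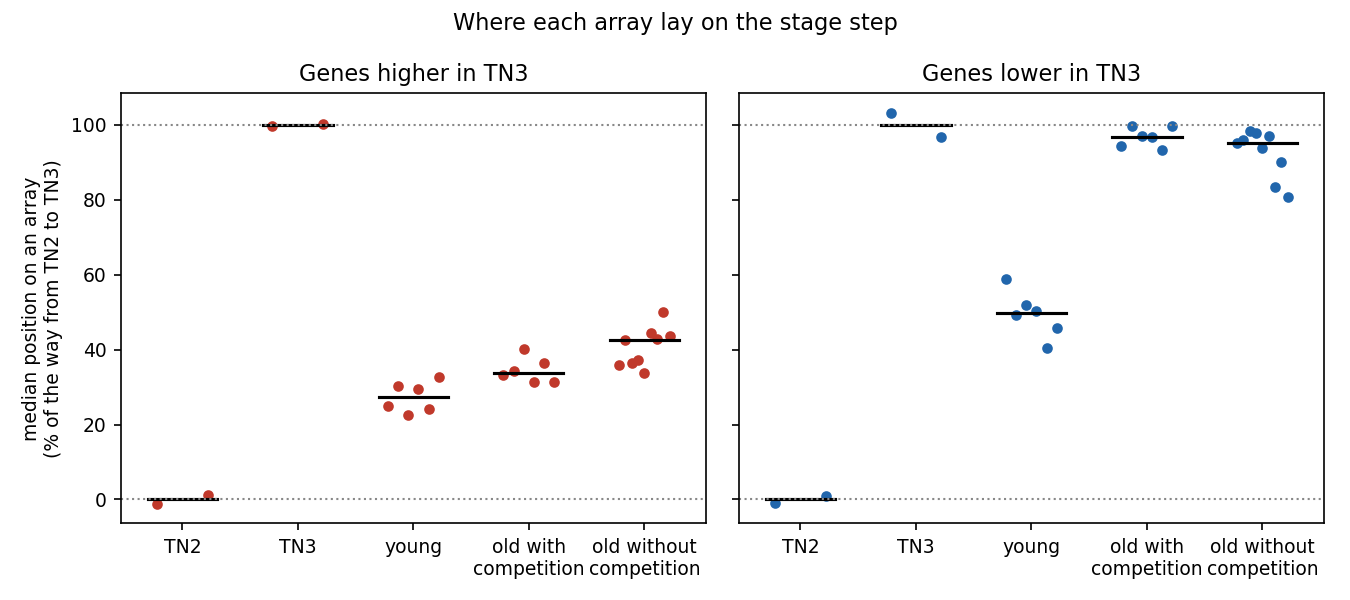
Median position of each array between the TN2 mean (0%) and the TN3 mean (100%) over the 69 genes higher in TN3 (left) and the 137 genes lower in TN3 (right), with 1 point per array and a bar at the median of each group. For genes lower in TN3 the arrays of the old groups lie between 80.8% and 99.7% and the young arrays between 40.5% and 59.0%.

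Single genes departed from these medians. Rag1 was at 9.25 ± 0.19 (SD, n = 6) in young cells and at 9.03 ± 0.27 (n = 9) in old cells without competition, around the TN3 arrays at 9.05 and 9.18. Its mean over old cells with competition was 9.86 ± 0.64 (n = 6), and the lowest of these arrays, at 9.48, was above both TN3 arrays. Cd3d was at 10.16 ± 0.22 in young cells, closer to TN3 than to TN2. Lef1 was at 7.34 ± 0.49 in young cells and at 9.00 ± 0.63 and 8.95 ± 0.40 in old cells with and without competition, at the level of TN3. Kit was at 6.90 ± 0.28 in young cells and at 4.62 ± 0.61 and 4.78 ± 0.52 in the old groups, below both TN3 arrays.

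Old cells with competition and young cells shared 2 chips that held no TN2 or TN3 array, so their difference could be set beside the step, though both came from the model that shares 1 estimate of the spread. Of the 137 genes that fell from TN2 to TN3, 61 (44.5%) were also lower in old cells with competition than in young cells, where 2.67% of all genes were lower; they made up 14.7% of the 414 genes of that list. They included Kit, Cd44, Lyl1, Hhex, Bcl11a, Nfe2, Cpa3, Mpo, Tyrobp and Hbb-b1. Of the 69 genes that rose, 4 (5.80%) were also higher in old cells with competition, namely Lef1, Nrp1, Rab11fip4 and Scn4b, where 0.483% of all genes were higher; they made up 5.33% of the 75 genes of that list. The 75 became 245 without array 6 of old cells with competition, 44 without young array 2 or young array 6, 48 without young array 3 or array 1 of old cells with competition, and 420 with array weights. The rising genes held 0 that were lower in those old cells. The falling genes held 1 that was higher there, Ptprk, which encodes a receptor phosphatase and was named after its value was seen.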

How the data were processed

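Total RNA of thymocytes was isolated with RNAzol B, converted to biotinylated cRNA and, per the labels' protocols, read on Illumina bead arrays. The authors deposited mean bead intensity values of 46237 probes without normalization, as the values show, each with a detection p-value that the authors deposited beside it. They also deposited log2 values, whose median was 6.51 on every array. For the scanner software, the detection test and the build, the sources used here give nothing.

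Intensities were background-corrected from the detection p-values and quantile normalized with neqc (limma 3.58.1, R 4.3.3, offset 16); 20 rows without a probe name were dropped. Probes with detection p below 0.05 on at least 3 of 25 arrays were kept (30174). Names came from the platform annotation (35784 probes with 1 symbol, 0 with several, 10453 with none), updated through RefSeq GRCm38.p6 (28620 by gene identifier, 2637 by accession). The brightest kept probe stood for a gene, which left 15533 genes.

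All 25 arrays entered 1 limma model with 5 group means and chip as a fixed block, so that the stage difference was the mean of the differences within chip 3 and chip 5, and the groups shared 1 spread (17 residual degrees of freedom). The chip comes from the array barcode. Deviations of arrays on the same chip from their group means correlated at 0.164, and TN3 minus TN2 correlated at 0.276 between the chips over all genes. Tests were two-sided and adjusted over all genes by Benjamini and Hochberg. With 2 arrays against 2, an exact permutation test cannot go below p = 0.333. Where no array of a group detected a gene, or the probe that stood for it, its fold is a bound. For arrays, their number limits the precision. Leaving out 1 array of a pair under a fixed chip leaves only the other chip's pair, so single-array values take chip as a random block, an alternative chosen after seeing the data.

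The comparison, the 29 gene lists, the motifs and the naming rule were chosen with earlier results of these data known. The rule named 6 markers, the called genes with the 20 highest and the 20 lowest differences, given no overlap and the same sign on both chips (skipping clone and predicted names), and up to 5 members of each list by smallest adjusted p plus any other that passed. Promoters are the first listed of each gene (RefSeq GRCm38.p6). Figures were drawn with matplotlib.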

Additional observations from a re-analysis of the deposited data

Results flagged for a closer look

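The arrays of 2 groups that share the spread with TN2 and TN3 stood apart. Array 6 of old cells with competition had 1617 genes that lay over 1 log2 unit away from their group's mean, where the other 5 arrays had 31 to 78. Rag1 stood there at 11.13, far above the others of that group. Array 1 of old cells without competition had 532 such genes, where the other 8 had 79 to 269. Among 24 such checks of groups of 4 to 10 arrays, 3 were past the limit, and chance alone puts about 5% past it. Groups of 2 arrays cannot be checked this way, so neither TN2 nor TN3 was. When array 6 was dropped, 319 genes differed between TN3 and TN2, and these held all 206 called with it.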

How the results depend on the processing

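The number of genes called between TN3 and TN2 varied with the alternatives. Against 206 genes (69 higher, 137 lower, 160 of them at least 2-fold), 0 passed with the 4 arrays alone and chip as a replicate block, 133 (48 and 85) with only old cells without competition beside them, 122 (37 and 85) with array weights, 83 (15 and 68; 73 at least 2-fold) with a common median, and 87 (32 and 55; 81 at least 2-fold) with the chip 3 pair alone. Without background correction, and with the deposited log2 table, 46 were at least 2-fold. Without the replicate block, a random chip gave 181 genes (176 of the 206) and no chip term 179. Leaving out 1 array gave from 87 to 319 genes, from 24 to 123 higher, from 55 to 196 lower and from 81 to 229 at least 2-fold, the upper ends without array 6 of old cells with competition. For old cells with competition against young cells, 489 became 1176 with array weights and 361 to 691 with 1 array left out.

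Of 54 called genes named by the rule, 53 kept their direction in all alternatives and S100a9 did not: from -2.669 without TN2 replicate 1 it moved to 0.039 with the chip 5 pair alone or without TN2 or TN3 replicate 2, and to 0.060 without TN2 replicate 2 under a random chip. When each of the 4 arrays was left out in turn under a random chip, 23 of the 54 kept their call, and 12 kept it in all alternatives but the 4 arrays alone. Between these counts lie Cd163, Cd180, Cd44, Cpa3, Litaf, Mapk8ip1, Mdga1, Mpo, Rag1, Serpine2 and Slc5a9, which lost their call with an array left out under a fixed chip. Of 6 lists with a median beyond 0.3 in size, 135 of 138 medians under the alternatives kept their sign. With chip as a random block, the stages differed in 127 genes (24 and 103) without TN2 replicate 1, 193 without TN2 replicate 2, 132 (74 and 58) without TN3 replicate 1 and 145 (66 and 79) without TN3 replicate 2. The causes of these changes were not tested. Dim probes near the floor limit the folds. No dye, scan or RNA quality value was at hand.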
